A study of Mus musculus with 12 samples.

Results

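The cytosolic ribosomal protein genes code for the proteins of the large (*Rpl*) and small (*Rps*) subunits of the ribosome that works in the cytoplasm. They were taken from the liver expression table as the rows with an *Rpl* or *Rps* name of the plain numbered form and a mean of at least 0.5 TPM (a level per transcript length, scaled to the same sum of 1000000 in each library) over 12 libraries. The name form was met by 79 genes, and 76 of them passed the minimum, 45 *Rpl* and 31 *Rps* genes, out of 12278 genes that passed it and 25676 in the table. The minimum fell in a wide gap: the 3 genes below it were *Rpl10l* (mean 0.00845 TPM), *Rpl3l* (0.0151 TPM) and *Rpl39l* (0.0699 TPM), copies of *Rpl10*, *Rpl3* and *Rpl39*, while the lowest genes above it were *Rps15a* (23.4 TPM), *Rpl7l1* (34.6 TPM) and *Rpl22l1* (54.3 TPM).

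Ribosomal proteins assemble with ribosomal RNA in the nucleolus in near equal numbers, and the liver, which secretes much of the plasma's protein, makes many ribosomes. Their messengers typically begin with a C followed by a run of pyrimidines, the 5′ terminal oligopyrimidine tract, through which mTORC1 signalling and LARP1 control their translation. YAP1 is a co-activator of transcription that binds DNA through the TEAD factors and is known for its control of organ size in the liver.

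The livers came from 12 mice on a C57BL/6 background at 3 to 4 months of age, each giving 1 library of bulk tissue RNA. There were 3 males and 3 females that were wild type (WT), and 3 males and 3 females in which *Yap1* had been knocked out with a Cre recombinase driven by *Foxa3* (KO). This driver is known to act in the embryonic liver bud, whose progenitors give both hepatocytes and bile duct cells. The labels do not say whether the WT mice carried floxed alleles or Cre. *Yap1* itself had 23.0 to 34.9 TPM in the 6 WT libraries and 0.994 to 3.11 TPM in the 6 KO libraries (log2 fold change -3.36, SE 0.17, limma adjusted p = 4.95e-09). Hepatocyte markers were abundant in every library, with a summed level of 64590 to 116489 TPM for 10 markers. Low values moved in steps that put 1 read in a kilobase at 0.0711 to 0.115 TPM, and by its coding length the median ribosomal protein gene then had 777 to 2149 reads per library. The labels set 3 libraries apart: WT male 2 carries a library number outside the run of the others, and WT female 3 and KO female 1 carry early animal numbers. Nothing in the labels ties a replicate number in 1 group to the same number in another.

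To show what a member's start looks like, the 40 bases around annotated starts are given for 4 genes with a pyrimidine tract at that start: *Rps10*, among the members with the highest genotype fold changes, *Rps27* and *Rpl35a*, which had the lowest, and *Rps6*, among the most abundant. The sequences are from RefSeq on GRCm38.p6, which held promoter windows for 57 of the 76 members (68 windows). The tract that begins at the annotated first base is in capitals. They lie at chr17:27635225-27635264 (minus strand), chr4:86857348-86857387 (minus), chr3:90213629-90213668 (minus) and chr16:33056462-33056501 (plus).
Rps10: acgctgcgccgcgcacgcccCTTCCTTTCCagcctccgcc
Rps6: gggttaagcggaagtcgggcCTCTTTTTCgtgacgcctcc
Rps27: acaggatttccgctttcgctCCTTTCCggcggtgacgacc
Rpl35a: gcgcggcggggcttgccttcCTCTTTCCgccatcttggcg

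For contrast, 3 members whose annotated start has no such tract are given, *Rpl41* and *Rpl12*, which had the highest genotype fold changes, and *Rps3a1*, 1 of the 2 that were lower in KO on rescaled values. They lie at chr10:128549149-128549188 (minus strand), chr2:32961692-32961731 (plus) and chr3:86142649-86142688 (minus), and all their letters are in lower case.
Rpl41: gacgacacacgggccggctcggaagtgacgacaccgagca
Rpl12: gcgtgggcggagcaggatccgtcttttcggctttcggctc
Rps3a1: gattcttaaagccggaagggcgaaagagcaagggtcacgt

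A tract of C and then at least 4 bases that are C or T, beginning exactly at the annotated start, was present in 12 of the 68 member windows (17.6%). It was present in 2.26% of the 12405 windows of all tested genes. An annotated start that is off by a few bases hides a tract, so a missing tract says only that these letters do not stand at that base. Within 300 bases (250 before and 50 after the start, both strands) the letters GGAAGT, the core of many ETS sites, occurred in 47.1% of member windows against 27.9% of the windows of tested genes. The YY1 letters AAGATGGC occurred in 11.8% against 4.29%. The TEAD letters CATTCC occurred in 6 of the 68 member windows, 8.82% against 12.3%, and the SP1 letters GGGCGG in 60.3% against 60.7%. The 12 members with a tract were *Rpl14*, *Rpl15*, *Rpl28*, *Rpl35*, *Rpl35a*, *Rpl38*, *Rps10*, *Rps15a*, *Rps18*, *Rps21*, *Rps27* and *Rps6*.

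The ribosomal protein genes made up between 1.50% and 3.46% of all TPM in a library. In WT males the share was 1.94%, 1.50% and 2.13%, and in WT females it was 2.47%, 2.63% and 2.33%. The WT sexes did not overlap, and males were lower. In KO males the share was 2.59%, 2.71% and 1.73%, and in KO females it was 3.46%, 2.13% and 2.97%. In each sex 2 KO libraries lay above all 3 WT libraries and the remaining one, KO male 3 or KO female 2, lay within or below their range. The means were 1.86% ± 0.322 (SD, n = 3) in WT males, 2.34% ± 0.535 in KO males, 2.48% ± 0.149 in WT females and 2.86% ± 0.671 in KO females. The KO groups thus spread over more than the difference between the genotypes, 0.431 percentage points over both sexes (0.259 without KO female 1 and 0.605 without KO male 3), and no p-value is given for a sum over the members. In bulk tissue, fewer cells of a type and less RNA per cell cannot be told apart.

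A share of TPM also depends on what fills the rest of the library. Major urinary protein (*Mup*) transcripts took 10.04% to 15.8% of TPM in WT males, 3.14% to 5.52% in WT females and 0.160% to 0.836% in KO. Mitochondrially encoded transcripts took 12.4% to 18.6% in all 12 libraries. With both left out of the total, WT male 3 (2.99%) lay above WT female 3 (2.94%), so the WT sexes overlapped, and KO was 0.180 percentage points above WT. Median-of-ratios scaling sets the typical gene equal between libraries. Each share divided by its library's factor is a rescaled level of the family and no longer a part of the library's TPM. This level was 2.37%, 2.08% and 2.53% in WT males and 2.41%, 2.37% and 1.31% in KO males. It was 2.70%, 2.80% and 2.56% in WT females and 2.75%, 1.93% and 2.59% in KO females. The rescaled level went the other way from the share: KO was 0.280 below WT over both sexes, in the same percent units. The 4 KO libraries other than KO male 3 and KO female 2 lay between 2.37% and 2.75%, against 2.08% to 2.80% over the 6 WT libraries.

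**Figure D1:**
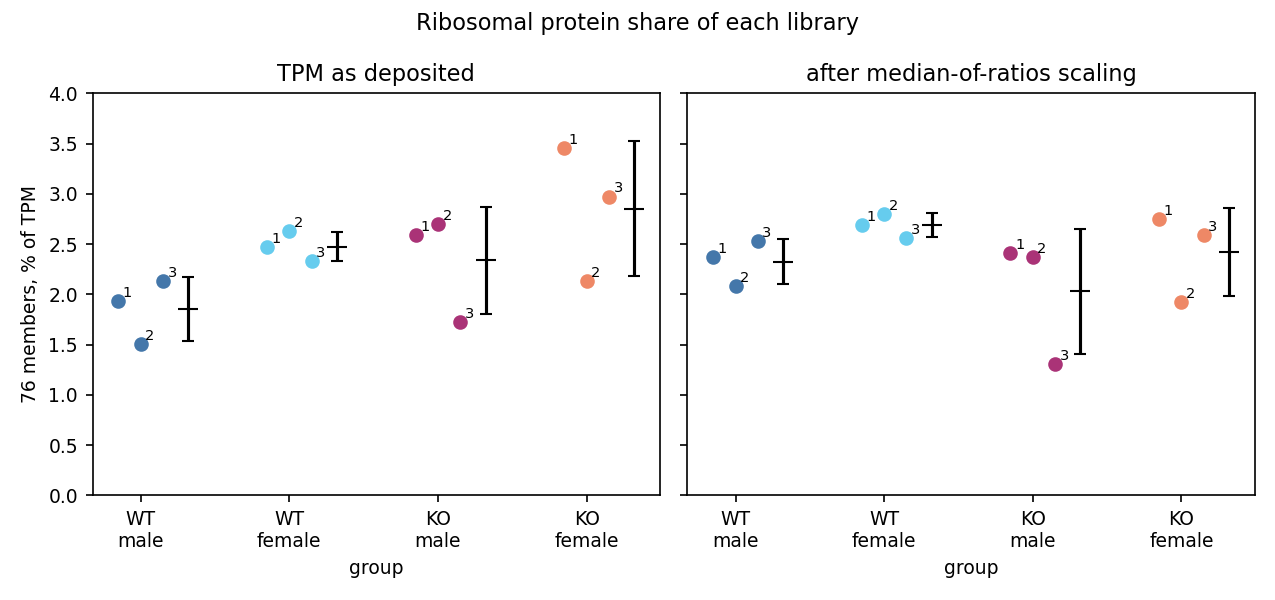
Each point is 1 liver library, numbered by replicate, and bars are the mean ± SD of 3 libraries. The height in the left panel is the share of TPM held by the 76 ribosomal protein genes (percent, as deposited). In the right panel it is that share divided by the library's median-of-ratios factor, a rescaled level and not a share. On the left the WT females (2.33% to 2.63%) lie above the WT males (1.50% to 2.13%), and KO male 3 and KO female 2 lie below the other KO libraries of their sex in both panels.

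Between the genotypes, most ribosomal protein genes did not pass the test. On the deposited scale 15 of the 76 members were higher in KO and 0 were lower (limma on log2(TPM + 1) with sex in the model, adjusted p under 0.05 over all tested genes). These 15 were 19.7% of the members, against 50.1% of all 12278 tested genes that were higher and 4.82% that were lower, so the share of members called higher was below the background. At an unadjusted p under 0.05 there were 21 members, all higher, 27.6% against 60.6% of all tested genes in either direction. The members' median log2 fold change was 0.25 and 72 of the 76 were above 0, against a median of 0.35 over all tested genes. The median standard error was 0.16 for the members and 0.14 over all genes. After median-of-ratios scaling, 0 members were higher and 2 were lower, *Rps2* and *Rps3a1*, and the members' median was -0.20. At an unadjusted p under 0.05 there were 10 members, all lower, 13.2% against 47.8% of all tested genes in either direction. On that scale 21.3% of all tested genes were higher, 18.0% were lower and their median was -0.03. In the authors' deposited table, whose scaling is not stated, 0 of the 76 members had an FDR p-value under 0.05 (the lowest was 0.31) and their log2 fold changes ran from -0.28 to 0.38. That table has an FDR p-value under 0.05 for 24.2% of its 17332 genes.

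**Figure D2:**
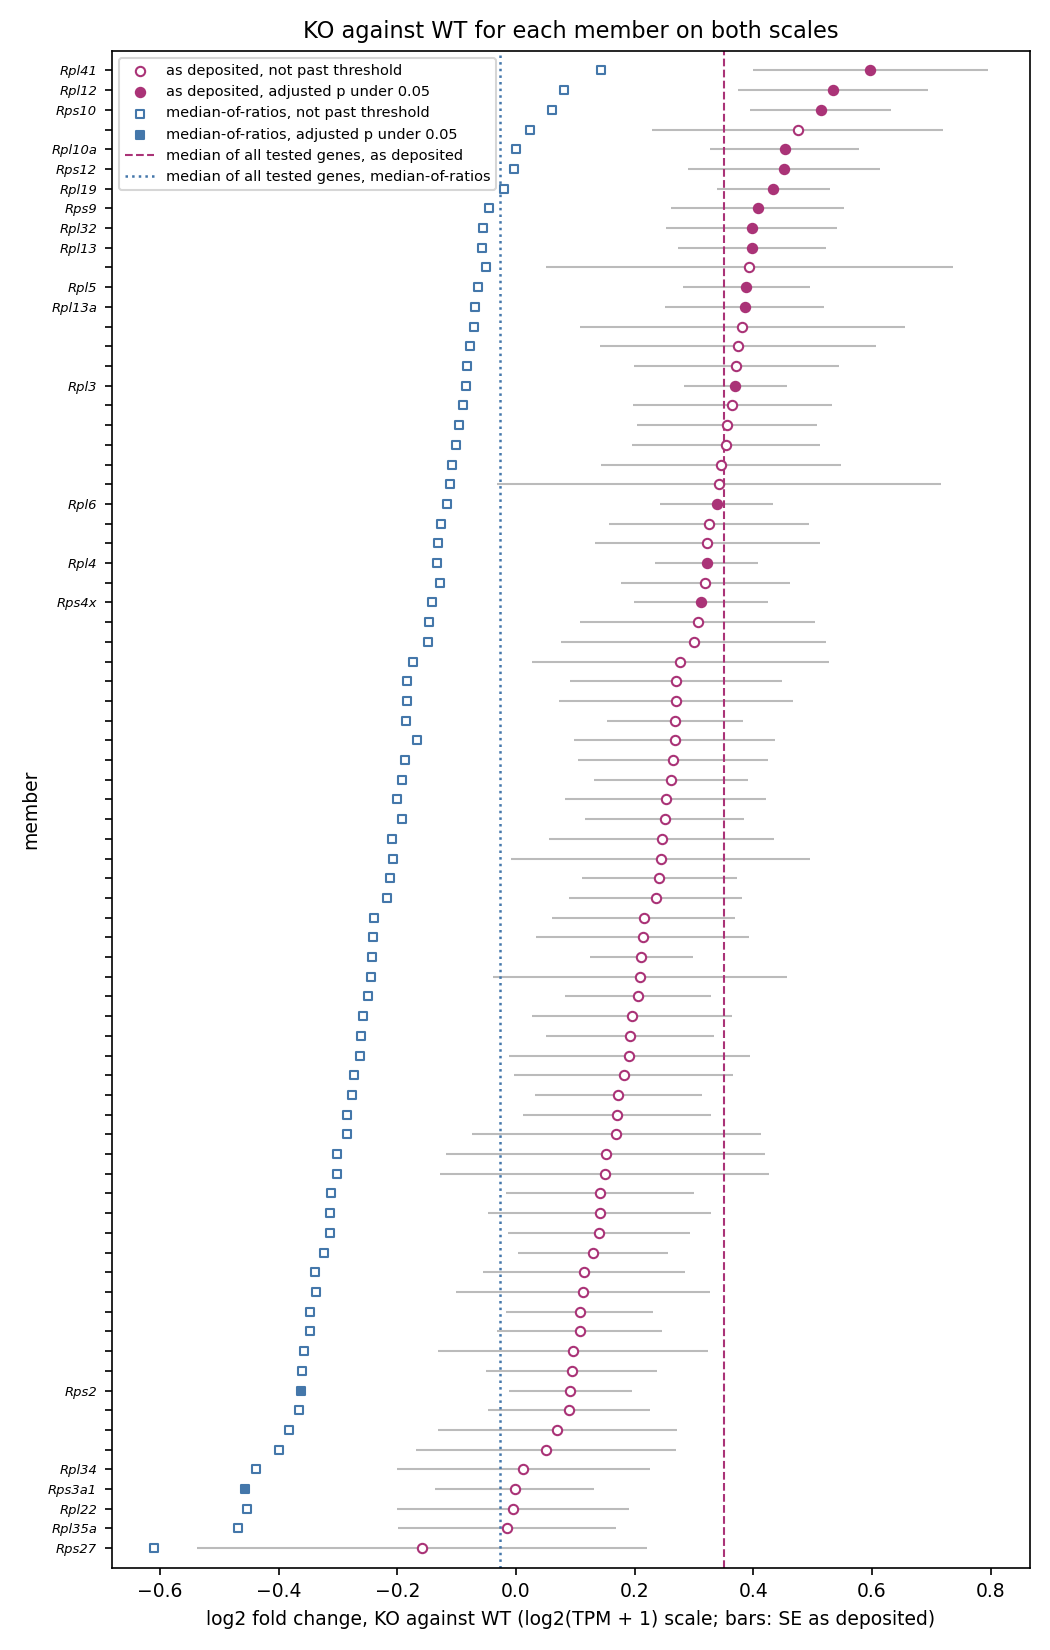
The horizontal axis gives log2 fold changes in KO against WT (log2(TPM + 1) scale) of the 76 ribosomal protein genes, ordered by the deposited scale. Circles with bars are the deposited TPM with the standard error, squares are the same genes after median-of-ratios scaling, filled symbols have an adjusted p under 0.05, names mark those and the 5 lowest, and the vertical lines are the medians of all tested genes, 0.35 and -0.03; the whole row of members lies mostly to the left of the line of its scale.

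The 15 members that were higher on the deposited scale were 11 of the large subunit (*Rpl3*, *Rpl4*, *Rpl5*, *Rpl6*, *Rpl10a*, *Rpl12*, *Rpl13*, *Rpl13a*, *Rpl19*, *Rpl32* and *Rpl41*) and 4 of the small subunit (*Rps4x*, *Rps9*, *Rps10* and *Rps12*). *Rpl41* (ENSMUSG00000093674, chromosome 10, 128548114 to 128549305, minus strand of GRCm38) codes for the smallest protein of the ribosome and had the largest fold change. Its level was 504, 314 and 530 TPM in WT males, 619, 624 and 554 in WT females, 786, 873 and 434 in KO males and 1119, 632 and 1027 in KO females. Of the KO libraries, 5 lay above all 6 WT libraries, and KO male 3 lay among the WT males. The log2 fold change was 0.60 (SE 0.20, limma adjusted p = 0.021) on the deposited scale and 0.14 (SE 0.21, adjusted p = 0.62) after median-of-ratios scaling.

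*Rpl12* (ENSMUSG00000038900, chromosome 2, 32961559 to 32965345, plus strand), whose protein lies near the stalk that recruits elongation factors, had 194, 132 and 178 TPM in WT males and 302, 283 and 204 TPM in KO males. It had 187, 197 and 252 TPM in WT females and 368, 211 and 291 TPM in KO females. The males did not overlap between genotypes, and KO female 2 lay within the WT females. Its log2 fold change was 0.53 (SE 0.16, limma adjusted p = 0.012) and 0.08 after median-of-ratios scaling (adjusted p = 0.72).

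*Rps10* (ENSMUSG00000052146, chromosome 17, 27630418 to 27636669, minus strand), a protein of the small subunit's head, had 123, 110 and 132 TPM in WT males and 203, 219 and 150 TPM in KO males. It had 178, 164 and 162 TPM in WT females and 253, 185 and 230 TPM in KO females. Within each sex all KO libraries were above all WT libraries. The log2 fold change was 0.51 (SE 0.12, limma adjusted p = 0.0026) and 0.06 after median-of-ratios scaling (adjusted p = 0.73). *Rps10* also carries the tract shown above.

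Only *Rpl19* and *Rpl4* had all 6 KO libraries above all 6 WT libraries, 2 of 76 members against 28.7% of all tested genes; *Rpl4* falls outside the rule by which genes were named and was chosen after its values were seen. *Rpl19* (ENSMUSG00000017404, chromosome 11, 98026710 to 98030492, plus strand) ran from 447 to 639 TPM in WT and from 642 to 861 TPM in KO, a gap of a few TPM between WT female 1 and KO male 3. Its log2 fold change was 0.43 (SE 0.10, limma adjusted p = 0.0018), and -0.02 after median-of-ratios scaling (adjusted p = 0.89). *Rpl4* had 472 to 641 TPM in WT and 647 to 731 TPM in KO, a log2 fold change of 0.32 (SE 0.09, adjusted p = 0.0072) and of -0.13 after that scaling (adjusted p = 0.26).

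Other abundant or well-known members are next. *Rpl13*, of the large subunit, was 534 ± 83.2 TPM in WT and 708 ± 138 in KO (SD, n = 6 each; log2 fold change 0.40, limma adjusted p = 0.016). *Rpl10a* was 270 ± 42.1 and 372 ± 68.1 TPM (0.45, adjusted p = 0.0080). *Rpl3*, which helps build the peptidyl transferase centre, was 242 ± 28.7 and 312 ± 28.2 TPM (0.37, adjusted p = 0.0030). After median-of-ratios scaling these log2 fold changes were -0.06, -0.00081 and -0.08. *Rpl39*, at the exit tunnel, was 115 ± 26.3 and 168 ± 66.3 TPM and did not pass the test (0.47, adjusted p = 0.12).

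*Rpl5* and *Rpl11* bind 5S ribosomal RNA and, when ribosome assembly fails, the p53 regulator MDM2. *Rpl5* rose from 184 ± 25.6 to 242 ± 33.9 TPM (log2 fold change 0.39, limma adjusted p = 0.0077, and -0.06 with adjusted p = 0.67 after median-of-ratios scaling). *Rpl11* was 358 ± 75.3 TPM in WT and 401 ± 113 in KO (0.14, adjusted p = 0.54). The 2 partners thus had different values on the deposited scale, but the difference between them was not tested. *Rps27a*, which is made as a fusion with ubiquitin, was 292 ± 53.5 and 378 ± 93.1 TPM (0.35, adjusted p = 0.073).

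At the low end stood *Rps27*, *Rpl35a*, *Rpl22*, *Rps3a1* and *Rpl34*, with log2 fold changes of -0.16 to 0.01 on the deposited scale, none past the test. *Rps3a1* (ENSMUSG00000028081, chromosome 3, 86137940 to 86142702, minus strand), a small subunit protein, had 426, 379 and 471 TPM in WT males and 536, 507 and 390 TPM in KO males. It had 591, 594 and 606 TPM in WT females and 672, 412 and 546 TPM in KO females. The genotypes overlapped in both sexes. Its log2 fold change was -0.0025 (SE 0.13, limma adjusted p = 0.99) on the deposited scale and -0.46 (SE 0.13, adjusted p = 0.016) after median-of-ratios scaling, on which it was called lower.

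*Rps2* (ENSMUSG00000044533, chromosome 17, 24718116 to 24721929, plus strand), a protein near the mRNA entry site, was the most abundant member, with a mean of 876 TPM. It had 736, 711 and 746 TPM in WT males, 867, 917 and 707 in KO males, 908, 968 and 1022 in WT females and 1078, 831 and 1020 in KO females. The log2 fold change was 0.09 (SE 0.10, limma adjusted p = 0.47) and, after median-of-ratios scaling, -0.36 (SE 0.12, adjusted p = 0.027). *Rps6*, the small subunit protein whose phosphorylation is a common readout of mTORC1 activity, was 654 ± 113 TPM in WT and 698 ± 139 in KO (0.09, adjusted p = 0.60, and -0.37 with adjusted p = 0.054 after that scaling). *Rps2* and *Rps6* had the 2 highest mean levels and did not pass on the deposited scale, while *Rpl41*, *Rpl19* and *Rpl13*, next in level, did.

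The shift of the family was narrow compared with that of all tested genes, but some related genes lay as close together. On the deposited scale the members' log2 fold changes ran from -0.16 to 0.60. Those of 8 ribosomal protein genes with other name forms ran from -0.07 to 0.50, and those of 15 other genes of the pyrimidine tract class from -0.12 to 0.45. Over 78 mitochondrial ribosomal protein genes they ran from -0.29 to 0.78. The standard deviation of the members' log2 fold changes was 0.142, against 0.757 over all tested genes, and the members' quartiles were 0.15 and 0.35. The standard error of a single member was as large as this spread, 0.16 at the median, but it includes library shifts that the members share. At equal family totals, which take these shifts out, it was 0.12 and the spread 0.142. The order of neighbouring members in the plot of fold changes is thus not resolved. When each library was scaled to the same total of the 76 members, which removes the common shift, 1 member departed from the family: *Rpl41* was higher in KO by 0.35 (SE 0.12, limma adjusted p = 0.047). On that scale 20.8% of all tested genes were higher and 6.34% lower. With libraries left out singly, *Rpl41* kept this call only without WT female 3 or KO male 3. At an unadjusted p under 0.05 there were 5 members (6.58%), against 36.5% of all tested genes.

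The large subunit took a slightly larger part of the family's TPM in KO. *Rpl* genes held 57.6% to 57.7% of it in WT males and 58.1% to 59.2% in KO males, and 56.9% to 57.1% in WT females and 57.7% to 59.5% in KO females. The genotypes did not overlap within either sex. The difference is small: the median log2 fold change was 0.27 for the 45 *Rpl* genes, 11 of them called, and 0.24 for the 31 *Rps* genes, 4 of them called, where 50.1% of all tested genes were higher. After median-of-ratios scaling the medians were -0.18 and -0.21, with 0 higher in either subunit and 2 *Rps* genes lower.

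The genotype effect was then read within each sex. In males 10 of the 76 members were higher in KO and 0 lower, 13.2% against 43.3% of all tested genes that were higher, and the members' median was 0.31 against 0.44. This median was 0.14 without WT male 2, 0.20 without KO male 1, 0.16 without KO male 2 and 0.53 without KO male 3. They were *Rpl3*, *Rpl4*, *Rpl5*, *Rpl6*, *Rpl7*, *Rpl10a*, *Rpl12*, *Rpl19*, *Rps9* and *Rps10*. In females 0 members passed with limma, against 29.1% of all tested genes that were higher, and 5 members had an unadjusted p under 0.05. The members' median in females was 0.16 against 0.27 over all genes, and it was 0.010 without KO female 1 and 0.39 without KO female 2. After median-of-ratios scaling the medians turned to -0.26 in males and -0.18 in females, and with the coding length trend removed they were -0.09 and -0.02. Both settings also remove the shift that all genes share, and the medians over all genes were then -0.03 in males and -0.02 in females. On the median-of-ratios values 0 members were called in either sex with limma, against 14.1% of all tested genes higher in males and 15.4% in females, and 2 and 1 members had an unadjusted p under 0.05. The libraries of the genotypes did not overlap for 8 members in males (against 50.8% of all tested genes) and for 8 in females (against 43.5%), all higher in KO. For the difference between the sexes in the genotype effect, 0 of the 76 members passed and 0 had an unadjusted p under 0.05, where 0.912% of all tested genes passed. Among the smallest p-values were those of *Rpl7* (male minus female effect 0.22, SE 0.17, limma adjusted p = 0.71) and *Rps3a1* (0.32, SE 0.26, adjusted p = 0.72).

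The sexes were then compared in WT livers. All 3 WT females lay above all 3 WT males for 49 of the 76 members, against 27.5% of all tested genes. The median male minus female difference was -0.43 (log2), against -0.19 over all tested genes, and 75 of the 76 members had values below 0. Without WT male 2 the members' median was -0.28, against -0.13 over all genes, and without *Mup* and mitochondrial genes it was -0.27, against -0.07. By test 2 members passed and 24 had an unadjusted p under 0.05, all lower in males, where 4.6% of all tested genes passed as lower in males. Among those that passed, *Rpl7*, of the large subunit, had 330, 335 and 358 TPM in WT males and 442, 468 and 473 TPM in WT females (-0.43, SE 0.12, limma adjusted p = 0.048). After median-of-ratios scaling 0 of the 76 members passed with limma, against 2.3% of all tested genes that were lower in males, and 2 members had an unadjusted p under 0.05. Their median was then -0.22, against -0.02 over all genes. With the coding length trend removed it was -0.09, against -0.0068 over all genes, and 15 of the 76 members were above 0.

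In KO livers the same difference had a median of -0.28 over the members and -0.0011 over all tested genes, but no member passed with limma and 1 had an unadjusted p under 0.05. Over all tested genes 0.0814% passed. All 3 KO females lay above all 3 KO males for 2 of 76 members, against 5.09% of all tested genes. Among them *Rpl7* had 449, 423 and 408 TPM in KO males and 532, 453 and 499 TPM in KO females. The median of -0.28 rested on single libraries: it was -0.068 without KO male 3, -0.13 without KO female 1, -0.43 without KO male 2 and -0.51 without KO female 2. With the coding length trend removed it was -0.16, against 0.0035 over all genes. Whether the sex difference itself differed between the genotypes is the same test as the interaction above.

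**Figure D3:**
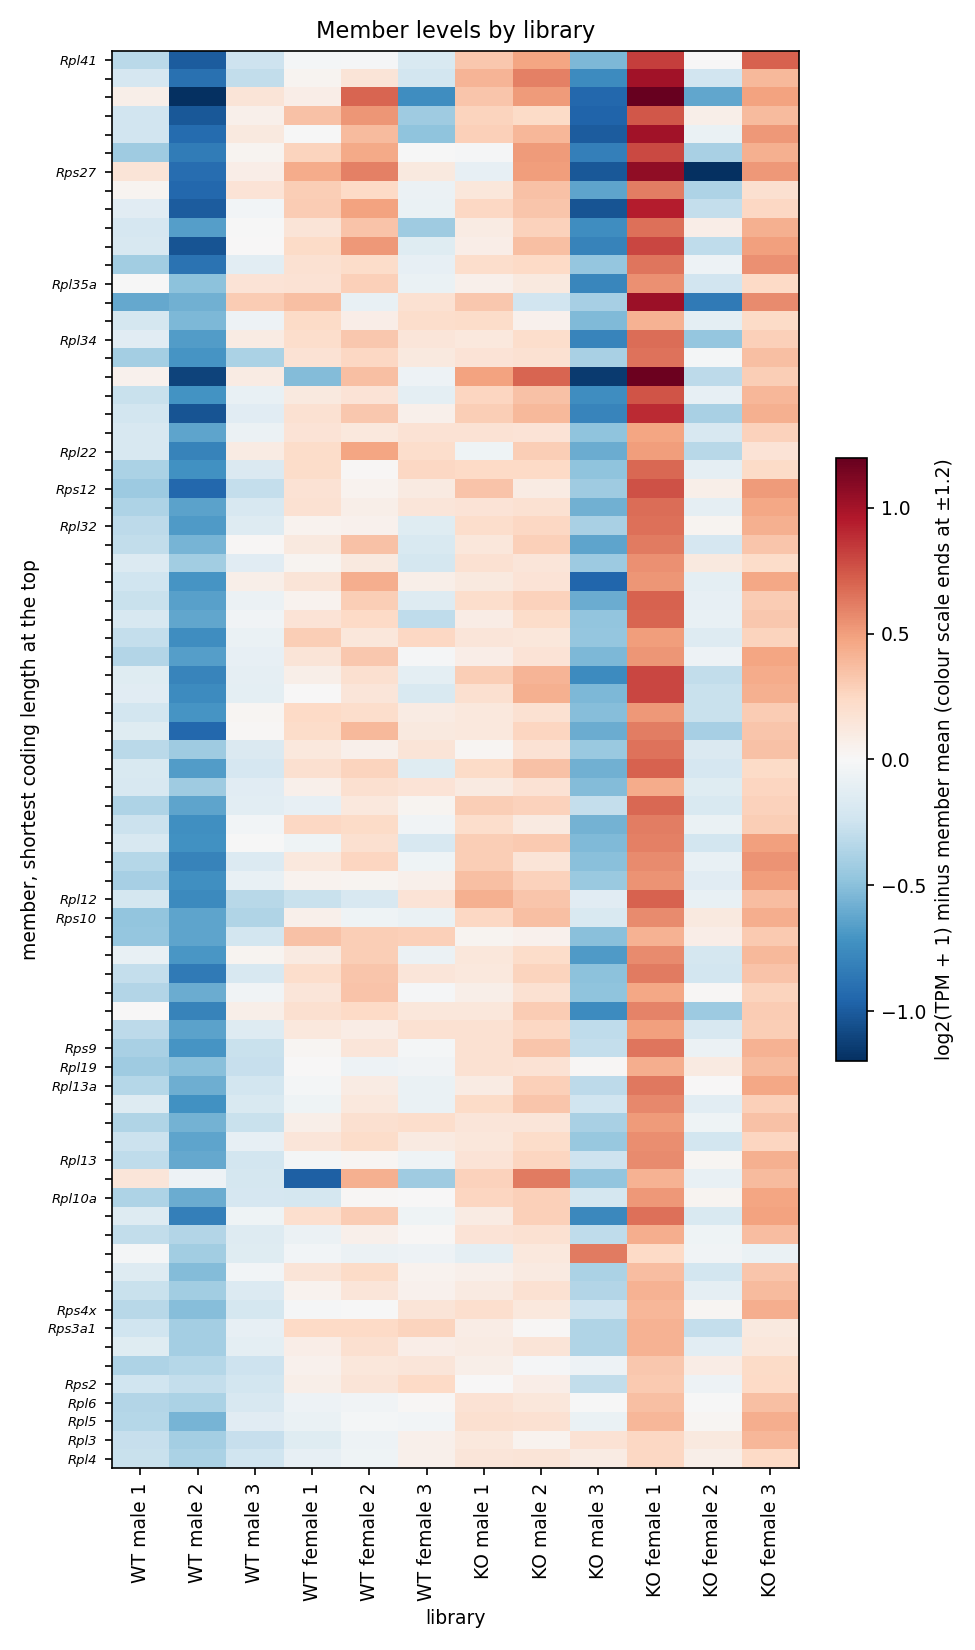
Each row is a ribosomal protein gene, ordered by coding length with the shortest at the top, and each column a library; colour is log2(TPM + 1) minus the gene's mean over the 12 libraries, red above and blue below, with the scale ending at 1.2 on either side and names for the members named in the plot of fold changes. WT male 2 and KO male 3 are blue over most rows and KO female 1 is red, and the colours are deepest in the top rows.

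In several libraries most members shifted one way. Against the mean of the WT libraries of the same sex, the median member shift was 0.50 in KO male 1 and 0.60 in KO male 2, with all 76 members above the reference in both. In KO male 3 it was -0.15, with 21 members above. It was 0.50 in KO female 1 (76 members above), -0.21 in KO female 2 (16 above) and 0.26 in KO female 3 (73 above). WT female 1 had 39 members above (51.3%, against 46.8% of all tested genes) and a median of 0.0056. WT male 2 stood lowest, with a median of -0.32 and 0 members above the mean of a group it belongs to, against 36.4% of all tested genes. Over all tested genes the median shift was -0.08 to 0.06 in the 6 WT libraries and 0.35, 0.43, 0.59, 0.36, 0.21 and 0.26 in KO males 1 to 3 and KO females 1 to 3, with 65.5% to 85.2% of genes above the reference in KO. In KO male 3 and KO female 2 the members' median thus lay below 0 and that of all genes above it. Among KO libraries the spread over members was 0.170 to 0.310, widest in KO male 3 and KO female 2, and that over all genes was 0.782 to 0.896. WT libraries are part of the mean they are set against, so their spread is not compared with that of KO.

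The shift was also set against coding length. Across the 76 members, Spearman's correlation of the shift with coding length was 0.70 in WT male 2, 0.58 in WT female 3, 0.61 in KO male 3 and 0.37 in KO female 2, and between -0.68 and 0.0076 in the other 8 libraries. These points share a library, and the values are a description. The 10 members with a coding length of up to 300 bases had a median shift of -0.51 in KO male 3, and the 19 members of 601 to 900 bases one of 0.01. Genes outside the family showed the same order in that library: the 278 other genes of up to 300 bases had a median of 0.0028, the 1740 of 601 to 900 bases one of 0.43 and the 8815 over 900 bases one of 0.66. In KO female 2 the 10 short members had a median of -0.37 and the 278 other short genes one of -0.35, against 0.29 for other genes over 900 bases. In WT male 2 the values were -0.60, -0.38 and -0.04.

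**Figure D4:**
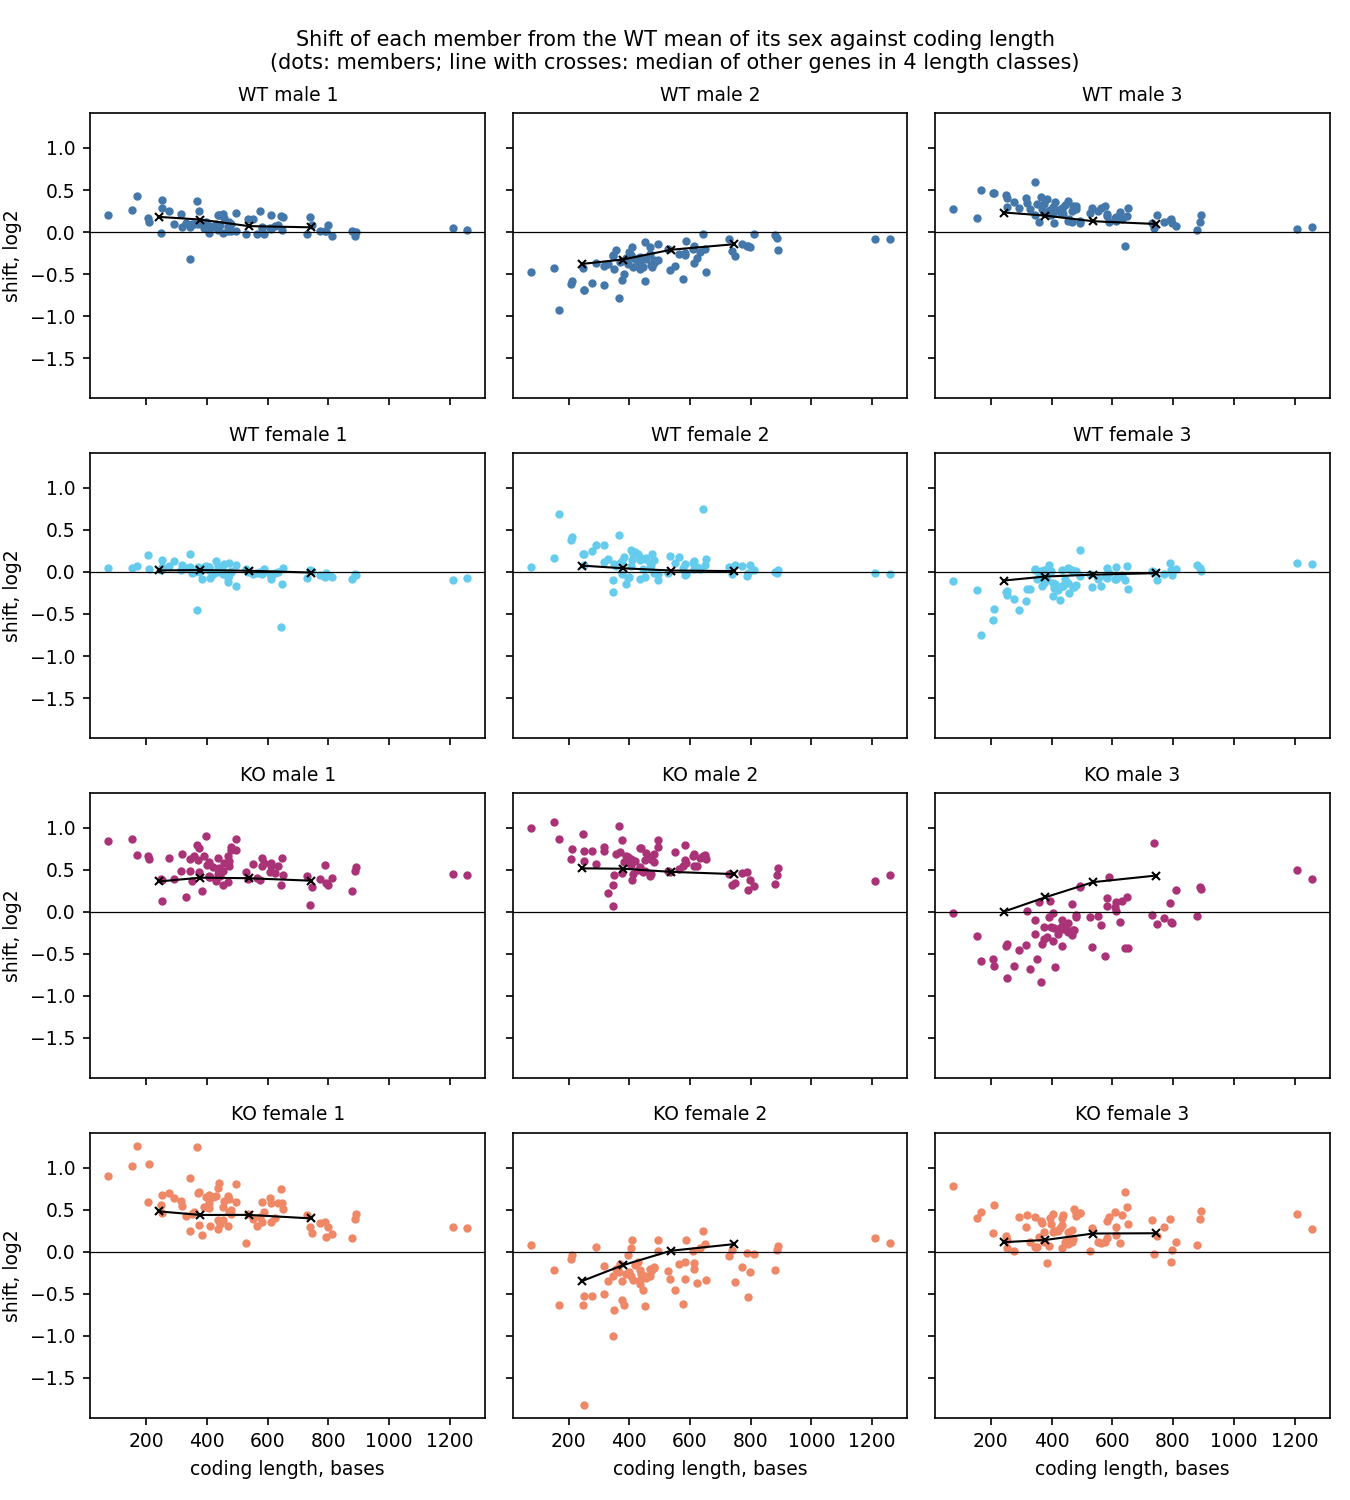
For each of the 12 libraries, the dots give each member's shift, log2(TPM + 1) minus the mean of the WT libraries of the same sex, against its coding length in bases, and the line with crosses gives the median shift of genes outside the family in 4 length classes up to 900 bases. In WT male 2, WT female 3, KO male 3 and KO female 2 both the dots and the line climb from left to right, least so for the line of WT female 3, and in KO male 3 most dots lie below the line.

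Short members therefore varied most between libraries. The highest level over the lowest, over all 12 libraries, was 3.66-fold at the median for members of up to 300 bases, and 2.60, 2.51, 2.0 and 1.65-fold for the next classes up to those over 900 bases. That last class holds only 2 members, *Rpl3* and *Rpl4*. *Rps29* (5.91-fold) and *Rps27* (5.71-fold), short zinc-binding proteins of the small subunit, had the widest ranges; *Rps29* was chosen after its values were seen. *Rps27* (ENSMUSG00000090733, chromosome 3, 90212522 to 90213651, minus strand) had 228, 108 and 215 TPM in WT males, 277, 309 and 221 in WT females, 190, 288 and 100 in KO males and 426, 74.7 and 293 in KO females. The KO females alone spanned the full range of the study. Its fold change of -0.16 had a standard error of 0.38.

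Further fits were added after this relation was seen. With the trend over coding length removed within each library, 2 members were higher (*Rpl41*, log2 fold change 0.36, limma adjusted p = 0.011, and *Rps10*, 0.21, adjusted p = 0.049) and 2 lower (*Rps3a1*, -0.36, adjusted p = 0.015, and *Rpl22*, -0.28, adjusted p = 0.048). On that scale 20.8% of all tested genes were higher and 19.0% lower, and the medians were -0.05 for the members and -0.03 for all genes. This fit removes more than a length trend, since it also takes off each library's shift over all genes. Median-of-ratios scaling takes off that shift without regard to length, and its medians were -0.20 and -0.03. Without WT male 2, KO male 3 and KO female 2, the 3 libraries with the lowest values of short relative to long genes outside the family, 54 members were higher and 0 lower, 71.1% against 47.9% of all tested genes. The members' median was then 0.38 and that of all genes 0.32. These libraries were picked from the data, and 2 of them are the KO libraries with the lowest ribosomal protein shares, so this count is a description. In males alone 33 members were then higher (against 29.6% of all tested genes) and in females 32 (against 33.4%). Leaving out KO female 2 alone gave 29 members (38.2%, against 51.7% of all tested genes that were higher), KO male 3 alone 25 (32.9%, against 47.1%) and WT male 2 alone 10 (13.2%, against 47.0%). The pair of early animals, KO female 1 and WT female 3, differed by a median of 0.58 over the members, with all 76 higher in the KO, and by 0.38 over all tested genes, of which 79.6% were higher.

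Members with and without a tract at the annotated start are set side by side, with no test of the difference. Over the 12 with a tract the median log2 fold change was 0.22 and 1 was called (*Rps10*), where 50.1% of all tested genes were higher. Over the 45 with a window and no tract it was 0.26 and 12 were called. Median coding lengths were 400.5 and 444 bases.

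Of 8 paralogs of members that were listed, *Rps27l*, *Rpl22l1* and *Rpl7l1* lay above the minimum, and none of the 3 passed the test between the genotypes with limma. *Rps27l*, a copy of *Rps27* known as a p53 target, was 279 ± 71.7 TPM in WT and 299.9 ± 91.0 in KO (log2 fold change 0.10, limma adjusted p = 0.74). Its level over that of *Rps27* was 1.26 ± 0.130 in WT and 1.60 ± 0.694 in KO (SD, n = 6), and the KO spread rests on KO female 2 at 2.87, where *Rps27* was lowest. *Rpl22l1* over its parent *Rpl22*, whose proteins are known to act against each other in development, was 0.583 ± 0.133 in WT (0.388 to 0.780) and 0.783 ± 0.222 in KO (0.440 to 1.05), and the genotypes overlapped. *Rpl22l1* itself was 44.9 ± 14.7 and 63.6 ± 31.6 TPM (0.39, adjusted p = 0.35). *Rpl7l1* over *Rpl7* was 0.0795 ± 0.0126 in WT and 0.0837 ± 0.0242 in KO. *Rpl10* had 60.03 to 161 TPM in WT and 85.9 to 184 in KO (0.37, adjusted p = 0.19) beside 563 to 1218 TPM for *Rpl10-ps3*, a copy of the same coding length, so reads of the 2 may be split and the level of *Rpl10* is uncertain. Many ribosomal protein genes have processed pseudogenes, and how the counting treated shared reads is not given in the sources used here.

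Genes that work beside the family were read from lists fixed with earlier results of these data known. Their counts stand against 50.1% of all tested genes higher and 4.82% lower on the deposited scale, and 21.3% higher and 18.0% lower after median-of-ratios scaling. Of 8 ribosomal protein genes with other name forms, 3 were higher in KO and 0 lower: *Rplp0* of the stalk (438 ± 82.9 to 617 ± 83.1 TPM, log2 fold change 0.50), *Rack1*, a scaffold on the small subunit (288 ± 29.6 to 388 ± 42.8 TPM, 0.43) and *Rpsa* (304 ± 53.2 to 361 ± 38.1 TPM, 0.26). Their limma adjusted p-values were 0.0071, 0.0026 and 0.032. After median-of-ratios scaling 0 were higher and *Rpl36al* was lower (-0.52, adjusted p = 0.0495). Of 36 ribosome biogenesis genes, 13 were higher (36.1%, below the background) and 0 lower, and the median was 0.25, against 0.35 over all tested genes. On the rescaled values 1 was higher and 8 were lower (22.2%). *Eif6*, which keeps the large subunit from joining too early, was the one gene of this list higher on both scales: 30.6 ± 4.83 TPM in WT and 88.2 ± 5.67 in KO, with 81.4 to 97.9 TPM in the 6 KO libraries and at most 40.01 in WT. Its log2 fold change was 1.51 (SE 0.10, adjusted p = 5.97e-08) and 1.06 after that scaling. KO male 3 had 89.1 TPM of it, and KO female 2, at 81.4 TPM, was the lowest KO library.

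Of 78 mitochondrial ribosomal protein genes, whose ribosomes translate the mitochondrial genome, 8 were higher (10.3%, below the background) and 0 lower, and the median was 0.10. After median-of-ratios scaling 0 were higher and 31 lower (39.7%, above the background), and the median was -0.33, against -0.20 for the cytosolic family. *Mrpl54* had the largest fold change of those called (43.8 ± 11.1 to 76.7 ± 22.0 TPM, 0.78, limma adjusted p = 0.0031, and 0.34 with adjusted p = 0.18 after scaling). Of 15 listed genes of the same pyrimidine tract class, translation factors among them, 8 were higher and 0 lower. These included *Hnrnpa1* (0.45), which is not a translation factor, *Pabpc1* (0.40) and *Eef1d* (0.33). After scaling 0 were higher and 3 lower. Of 14 tested genes of mTORC1 and ribosomal protein mRNA control, 5 were higher, led by *Myc*, an activator of ribosome production (6.35 ± 7.07 to 24.4 ± 9.62 TPM, 2.10, adjusted p = 0.00073, and 1.69 after scaling). After scaling 1 gene of this list was higher and 4 were lower (28.6%, against 18.0% of all tested genes). *Mtor* (0.49) and *Rptor* (0.39) were called on the deposited scale, and after scaling their values were 0.07 and -0.03 and neither passed.

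Of 9 tested genes of p53 and ribosomal stress, 8 were higher and 0 lower on the deposited scale and 4 higher after median-of-ratios scaling. *Cdkn1a*, a cell cycle inhibitor, was 9.66 ± 13.5 TPM in WT and 47.4 ± 29.5 in KO (log2 fold change 3.13, limma adjusted p = 0.0021). *Phlda3* (1.51) and *Trp53* itself (0.83) were called on both scales. All 12 proliferation markers were higher, 10 of them after scaling, with summed levels of 28.8 to 44.4 TPM in WT and 65.96 to 117 TPM in KO.

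Markers of other cell types moved with genotype beside these values. Their counts stand against 50.1% of all tested genes higher and 4.82% lower on the deposited scale, and 21.3% and 18.0% after median-of-ratios scaling. All 12 macrophage markers were higher in KO (median log2 fold change 2.29), with summed levels of 121 to 438 TPM in WT and 728 to 1464 TPM in KO. Of 7 tested cholangiocyte markers 5 were higher and 1 lower (37.9 to 71.8 TPM against 293 to 758 TPM), and of 12 stellate cell and fibroblast markers 8 were higher and 0 lower (79.1 to 198 TPM against 216 to 528 TPM). Of 4 tested neutrophil markers 3 were higher, of 6 lymphocyte markers 1, of 10 endothelial markers 3 higher and 1 lower, and of 5 erythroid markers 0. Of 10 hepatocyte markers 1 was higher and 3 were lower. After median-of-ratios scaling the 12 macrophage markers were again all higher, 4 cholangiocyte markers were higher and 1 lower, and 6 stellate cell and fibroblast markers higher and 2 lower. On that scale 1 neutrophil marker was higher, 1 endothelial marker was higher and 1 lower, 0 lymphocyte markers passed, and 0 hepatocyte markers were higher and 5 lower. None of the macrophage markers was at 0 in any library, and 1 or 2 of the 10 listed cholangiocyte markers were at 0 in 5 libraries. Their part in the values of the ribosomal protein genes was not tested.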

How the data were processed

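Liver RNA of 12 mice was sequenced, and the authors deposited TPM per gene and library, per the file headers. The deposited table also holds the authors' own fold change, log2 fold change and FDR p-value, read here as a score and quoted only where named. The submitters' processing notes name edgeR and GRCm38 with no role. The aligner, counter, annotation and use of strand are not given in the sources used here. Each TPM column sums to 1000000, and 0 columns were left unmatched. Groups came from the sample titles, and replicate numbers only name samples, and p-values measure only the spread between these libraries. The members and gene lists were chosen with earlier results of these data known.

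Values were tested as log2(TPM + 1) with limma 3.58.1 in R 4.3.3 (intensity trend, two-sided, Benjamini-Hochberg over all 12278 genes with a mean of at least 0.5 TPM, threshold 0.05). Fold changes are on that scale. The genotype fit had sex as a covariate; the contrasts within sex, between sexes and the interaction came from 1 fit of the 4 groups. The fits were tested on simulated data. Positions and coding lengths (all 76 members) were taken from GENCODE mouse release 21, and starts from RefSeq. Members were named by rule: the 5 highest in level, the 5 highest and 5 lowest fold changes on the deposited scale and at equal family totals, the 3 smallest interaction p-values, paralogs with their parents, *Rps6*, *Rpl5*, *Rpl11* and *Rps27a*, and the genes beside the minimum. Of other lists, up to 3 called genes were named. The values of 1 member that the rule picks are not reported here. Alternatives were other scalings, a pseudocount of 0.1, no filter, a covariate for the early animals, no trend and each library left out. Removing the coding length trend, leaving out 3 libraries together and the rescaled level of the family were added after the data were seen.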

Additional observations from a re-analysis of the deposited data

Results flagged for a closer look

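*Rpl7l1*, the paralog of *Rpl7*, had 25.2 TPM in WT male 2, and the other 5 WT libraries lay between 30.7 and 33.7 TPM. The gap to the nearest library was 0.65 of the whole range, above the limit of 0.625 for 6 values. Of the 52 groups of 6 examined (25 named members and the family's share, in each genotype), 1 was found, and chance flags about 1 in 20. WT male 2 was the library with the lowest family share and carries a library number outside the run of the others.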

How the results depend on the processing

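No paired analysis was possible because the labels give no replicate numbers that groups share. The 15 members called between the genotypes became 2 after median-of-ratios scaling (both lower, against 18.0% of all tested genes), 2 without *Mup* and mitochondrial genes (both higher, against 35.1%), 4 with the coding length trend removed (2 higher, against 20.8%, and 2 lower, against 19.0%) and 54 higher (against 47.9%) without WT male 2, KO male 3 and KO female 2. With single libraries left out the count ran from 10 to 29, and was 25 without KO male 3 and 29 without KO female 2, all higher, where 46.5% to 51.7% of all tested genes were higher. In males the 10 became 0, 0, 1 (lower, against 10.2% of all tested genes) and 33 (higher, against 29.6%) under the same settings and 4 higher (against 36.2%) after rescaling without the 20 most abundant genes, and 4 to 28 with single libraries left out (4 without WT male 2 or KO male 2, against 33.4% and 37.2% of all tested genes higher, and 28, 36.8% of members, without KO male 3, against 33.6%). In females the 0 became 2 with the length trend removed (1 higher and 1 lower, against 16.0% and 12.3%), 32 higher (against 33.4%) without the 3 libraries and 0 to 7 with single libraries left out (7 without KO female 2, 9.21% of members against 25.8%). The 2 sex calls in WT became 0 after median-of-ratios scaling, without *Mup* and mitochondrial genes, with the early animals as a covariate and with the length trend removed, 1 without the intensity trend, 3 without the 20 most abundant genes, 3 without the 3 libraries, and 0 to 3 with single libraries left out, where 4.6% of all tested genes were lower in males in the full fit and 1.67% to 10.8% over these settings. The genotype median of 0.25 reversed to -0.20 after median-of-ratios scaling and to -0.046 with the length trend removed. Both settings also remove the shift that all genes share: the median over all tested genes went from 0.35 to -0.03 in each. Without *Mup* and mitochondrial genes the members' median was 0.073, with 0.045 in males and 0.060 in females, and the share difference of 0.431 was 0.180. Between the rescaled levels of median-of-ratios scaling the difference was -0.280. With that scaling 12 of the 15 called fold changes fell below 0, among them those of *Rpl10a* (-0.00081), *Rpl13* (-0.057), *Rpl19* (-0.021), *Rpl3* (-0.084) and *Rpl5* (-0.065), that of *Rps2* reversed and was called (-0.36), and *Rpl3* was -0.0043 with the length trend removed. The 1 member that departed from the family total became 2 without a filter, 0 with the early covariate, 0 without the trend, 4 without the 3 libraries and 0 to 1 with single libraries left out. The causes were not tested. The pseudocount changed none of these counts. The limits are 3 mice a group, shared reads with pseudogenes, and a genotype direction that depends on the scaling.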
